A study of Mus musculus with 32 samples.

Results

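The genes described are 9 factors of the trophectoderm and its placental descendants: Tead4, Cdx2, Gata3, Tfap2c, Eomes, Elf5, Hand1, Plac1 and Esx1. They were picked by gene symbol, with earlier results of these data known, and all 9 were found once in every library among 55573 measured genes. All 9 also passed the filter on low counts in every comparison.

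RNA was sequenced from embryonic stem cells (ESC) of the mouse strain 129S5/SvEvBrd whose Smarce1 gene bears either a tag called MD or its variant MD(R42A), and from cultures of such cells after 6 days of direct neural induction. The product of Smarce1 is BAF57, which belongs to the nucleosome remodelling complexes known as BAF or SWI/SNF. MD most likely stands for mitotic degron, a cyclin fragment by which a fused protein is degraded at the end of mitosis, and R42A for a form that does not work; the labels leave both names unexplained. The R42A ESC group holds the clones A01, A02, A04 and A10 and the MD ESC group the clones 09, 30, 45 and 47, each with 3 libraries. Both were grown with serum and LIF on gelatin and are labelled untreated. The neural groups hold the clone labels A04 and A10 (R42A) and 09 and 30 (MD), with 2 libraries each, from cells kept in a neural induction medium. Every group carries a tagged Smarce1, so no untagged cells enter a comparison, and each clone is 1 cell line. ESC libraries of A04, A10, 09 and 30 form a first library series and those of A01, A02, 45 and 47 a second, as read from runs of library numbers in the labels. Neural libraries form a run of their own, so stage and library run cannot be told apart.

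The trophectoderm is the outer layer of the blastocyst and founds the placenta. In its cells TEAD4, with its partner YAP, turns on Cdx2, and GATA3 and TFAP2C act beside CDX2; EOMES and ELF5 then keep trophoblast stem cells dividing, while HAND1, PLAC1 and ESX1 belong to later trophoblast and placenta. In ESC these genes are mostly held low, with OCT4 (Pou5f1) opposing CDX2. Several have other uses in the embryo: Cdx2 in the posterior body axis, Eomes in the primitive streak and in progenitors of cortical neurons, Gata3 and Tfap2c in surface ectoderm and sensory or sympathetic lineages, Tfap2c also in germ cells, and Hand1 in lateral mesoderm and heart.

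Upstream sequences are shown for Cdx2, Gata3 and Plac1, whose RNA was called higher in MD ESC, and for Eomes, which was called lower there and higher in MD neural cells. They come from RefSeq promoter windows of GRCm38.p6, in which 6 of the 9 genes were matched with 8 windows. Each sequence runs from 250 bases before the RefSeq start towards that start and ends before any exon that GENCODE M21 gives the same gene. Capitals mark motif matches on either strand.
Cdx2, chr5:147307271-147307499, minus strand: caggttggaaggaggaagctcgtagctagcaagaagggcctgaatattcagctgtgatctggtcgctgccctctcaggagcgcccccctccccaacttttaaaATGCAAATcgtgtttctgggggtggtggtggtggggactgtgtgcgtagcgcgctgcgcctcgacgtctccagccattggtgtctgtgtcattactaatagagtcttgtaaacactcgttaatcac
Gata3, chr2:9878601-9878850, minus strand: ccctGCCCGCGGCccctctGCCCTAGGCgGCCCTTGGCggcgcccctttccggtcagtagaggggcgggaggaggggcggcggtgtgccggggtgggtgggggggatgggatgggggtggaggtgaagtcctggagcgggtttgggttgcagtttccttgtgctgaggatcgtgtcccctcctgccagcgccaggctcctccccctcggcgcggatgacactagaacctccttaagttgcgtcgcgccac
Plac1, chrX:53240112-53240360, minus strand: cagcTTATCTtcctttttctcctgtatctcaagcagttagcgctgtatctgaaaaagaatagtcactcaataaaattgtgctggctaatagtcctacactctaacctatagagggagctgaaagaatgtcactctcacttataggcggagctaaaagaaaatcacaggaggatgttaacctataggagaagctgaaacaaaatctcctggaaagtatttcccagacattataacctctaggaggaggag
Eomes, chr9:118477939-118478188, plus strand: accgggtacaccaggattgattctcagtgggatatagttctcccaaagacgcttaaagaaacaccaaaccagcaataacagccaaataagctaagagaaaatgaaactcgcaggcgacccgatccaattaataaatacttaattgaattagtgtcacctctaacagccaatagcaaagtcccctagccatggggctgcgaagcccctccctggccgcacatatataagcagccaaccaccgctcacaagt

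The motifs searched were an octamer ATGCAAAT (in 1.6% of 32807 windows of 250 bases), a TEAD motif GGAATG (12.6%), an AP-2 motif GCCNNNGGC (13.7%), a GATA motif AGATAA (9.99%), a T-box motif AGGTGTGA (1.12%) and a TATA motif TATAAA (12.4%). The Cdx2 window held the octamer, 147 to 140 bases before the start, in the orientation shown. It also held an AP-2 match 16 to 8 bases before the start, inside the 21 bases of the GENCODE first exon that are not printed. The Gata3 window held 3 AP-2 matches, beginning 246, 231 and 221 bases before the start. It lies within the span of the longer Gata3 gene model, over an exon of the antisense gene Gm13256, which had 0 counts in every library. The upstream Plac1 window held a GATA match at 246 to 241 bases before the start, in reverse orientation, and the Eomes window held none of the 6 motifs. CpG counts per window of 250 bases were 13 for Cdx2, 19 for Gata3, 2 for Plac1 and 8 for Eomes, against a median of 6 over all windows. The Esx1 window had 24 CpG and no match. These matches describe letters only, and no binding was measured in these samples.

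The labels were checked against defining genes. Pou5f1, the core pluripotency factor, stood at 1320 ± 530 CPM (counts scaled to library size) in R42A ESC and 1090 ± 335 CPM in MD ESC (SD, n = 4 clones), and at 9.94 ± 0.129 and 8.78 ± 0.589 CPM in R42A and MD neural cells (SD, n = 2 clones). Sox1, of early neural progenitors, went from 11.7 ± 5.44 and 4.51 ± 3.13 CPM in R42A and MD ESC to 173 ± 4.61 and 124 ± 2.32 CPM. The neural cultures also held RNA of Sox17 (36.4 ± 3.32 CPM in R42A, 20.8 ± 2 CPM in MD), an endoderm gene, and of T (8.09 ± 0.276 and 9.82 ± 0.574 CPM), a gene of the primitive streak. Smarce1 RNA itself was at 109 ± 15.9 CPM in R42A ESC and 116 ± 5.03 CPM in MD ESC. In neural cells it was at 230 ± 1.63 CPM in R42A and 293 ± 6.11 CPM in MD (SD, n = 2 clones). Clones of the genotypes did not overlap there, as was so for 76% of all genes tested in neural cells. Smarce1 RNA does not measure the tagged protein. Total counts per library ran from 38699952 to 96424443 over the 32 libraries.

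Compared per kilobase of exon (CPM per kb, the only scale used here to rank genes against each other), the 9 genes covered a wide range in ESC. In R42A ESC the level of Tfap2c was highest at 8.67 CPM per kb, followed by Tead4 (6.92), Esx1 (1.81), Eomes (1.14), Hand1 (0.199), Gata3 (0.0576), Plac1 (0.0377), Cdx2 (0.0327) and Elf5 (0.008). The clone ranges of Tfap2c and Tead4 overlapped, as did those of Gata3 and Plac1 and of Plac1 and Cdx2, so these neighbours were not separated beyond the spread between clones. The same order held in MD ESC, with Tfap2c at 15.3, Tead4 at 3.34, Gata3 at 0.317, Cdx2 at 0.116 and Elf5 at 0.0128 CPM per kb; there the clone ranges of Tfap2c and Tead4 no longer overlapped, while each neighbouring pair from Eomes down to Cdx2 did. The lineage-specifying factor Cdx2 was thus among the lowest of the set in ESC.

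In neural cells the order differed. In R42A neural cells Tfap2c (6.1 CPM per kb) was followed by Cdx2 at 3.53, Tead4 at 2.6, Eomes at 1.33 and Plac1 at 1.23, with Esx1, Gata3, Hand1 and Elf5 between 0.24 and 0.0118. In MD neural cells Tfap2c (10.5) was followed by Eomes at 4.06, Cdx2 at 1.22, Tead4 at 1.17, Plac1 at 0.709 and Gata3 at 0.6, and Elf5 was again last at 0.0138 CPM per kb. Eomes and Plac1 overlapped in R42A, and Cdx2 and Tead4 in MD. The plot of levels by clone gives all 9 genes on the CPM scale.

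**Figure D1:**
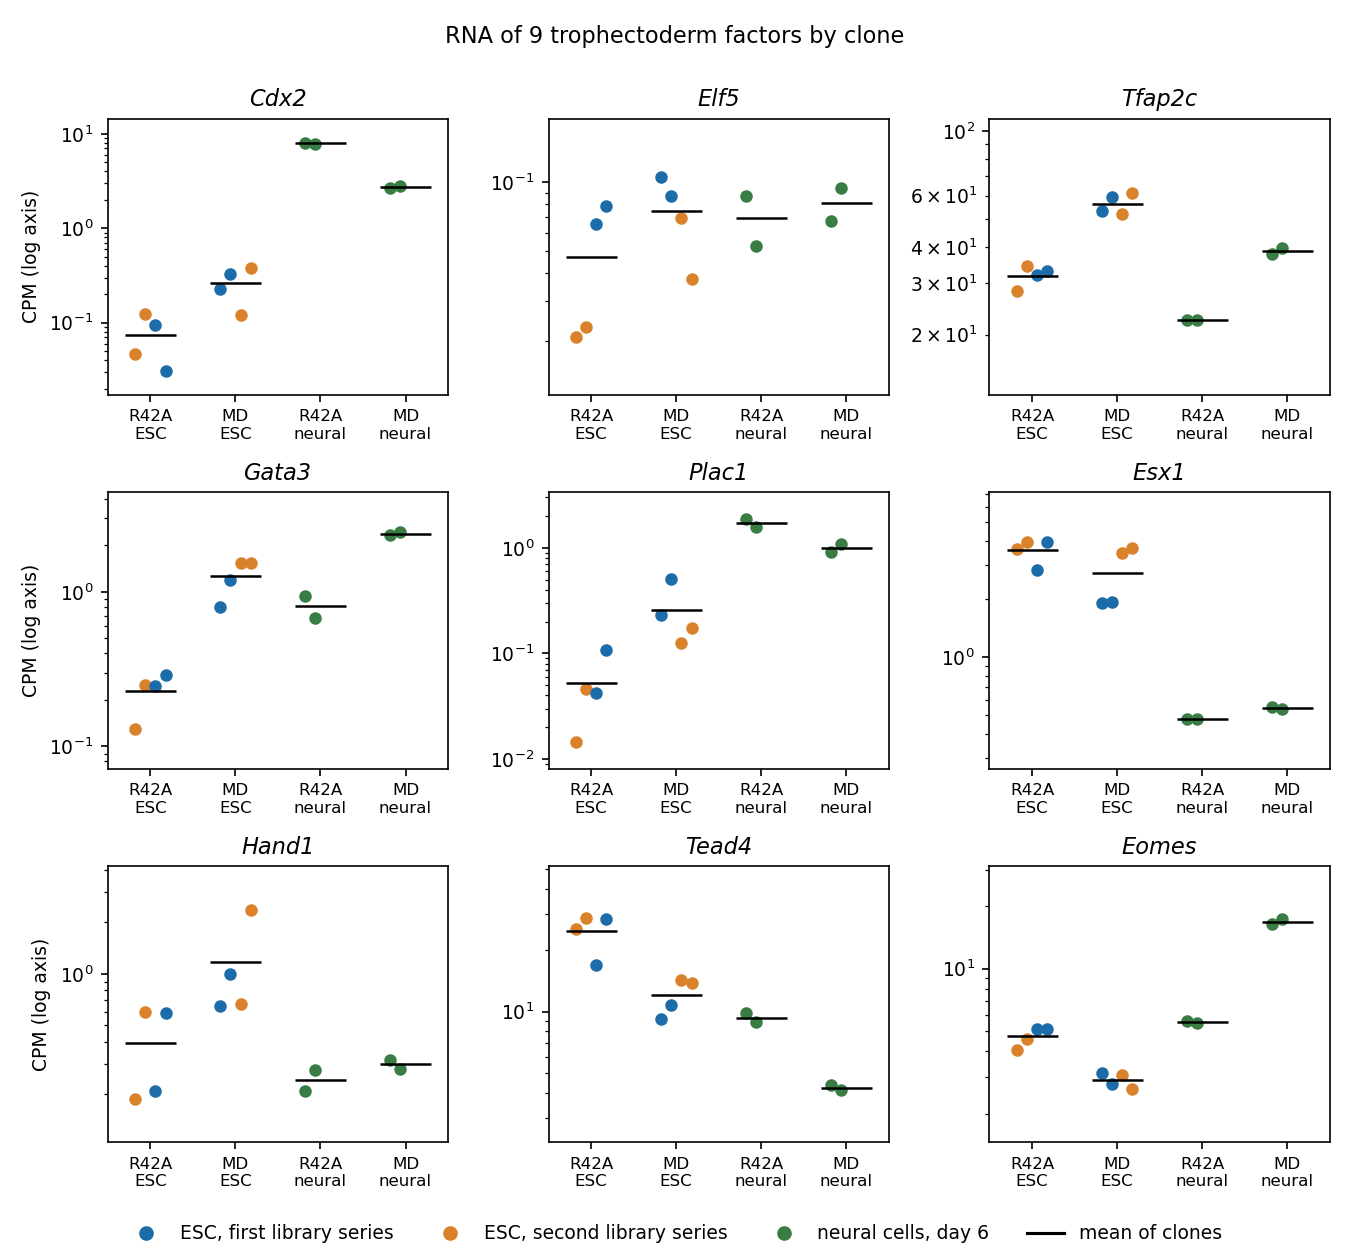
CPM (log axis, one panel per gene) in each clone of the 4 groups; points are clones (mean of their libraries), coloured by ESC library series or neural stage, and bars are means of clones. Clones of MD ESC lie above all R42A ESC clones for Tfap2c, Gata3, Plac1 and Hand1 and below them for Tead4 and Eomes, and Cdx2 is highest in R42A neural cells at 7.98 CPM.

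The first comparison asked how MD and R42A clones differed in ESC. RNA of Gata3, Plac1, Cdx2 and Tfap2c rose in MD clones by 5.18, 4.7, 3.48 and 1.76 times, and RNA of Tead4 and Eomes fell, while Elf5, Hand1 and Esx1 did not pass the test. Thus 6 of 9 genes were called at an adjusted p under 0.05 in edgeR's quasi-likelihood test, where 36.5% of 21567 genes tested were. Of these, 4 were higher (17.1% of genes tested) and 2 lower (19.4%). The median log2 change of the 9 was 0.81, against -0.03 over all genes tested. Clones of the 2 genotypes did not overlap for 4 genes with MD above (10.8% of genes tested) and 2 with MD below (10.2%). In bulk RNA, a change in the number of cells that express a gene and a change in RNA per cell cannot be told apart.

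Tead4, the TEAD factor at the head of the trophectoderm programme, was at 25.4 CPM in R42A clone A01, 28.7 in A02, 16.9 in A04 and 28.6 in A10, and at 9.19, 10.7, 14.3 and 13.8 CPM in MD clones 09, 30, 45 and 47. Every MD clone was below every R42A clone, although single libraries overlapped (13.2 to 33.2 CPM in R42A, median 26.1; 7.9 to 19 CPM in MD, median 10.7). RNA of Tead4 fell by 1.07 ± 0.16 on the log2 scale (SE; adjusted p = 0.00121). Within the first library series the change was -1.15 (adjusted p = 0.077) and within the second -0.92 (adjusted p = 0.00164).

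Cdx2, the homeobox factor that specifies trophectoderm, was at 0.0466, 0.122, 0.0955 and 0.031 CPM in R42A clones A01, A02, A04 and A10. In MD clones 09, 30, 45 and 47 it was at 0.225, 0.329, 0.12 and 0.377 CPM. Clone 45 thus lay within the R42A range, at the level of A02, and the other 3 MD clones above it. These levels rest on 7 to 22 counts per R42A clone and 17 to 59 per MD clone, summed over 3 libraries; 1 library of A01 had a count of 0, which allows up to 0.0632 CPM (counting error only). The log2 change was 1.8 ± 0.5 (SE; adjusted p = 0.0214). The call was lost without clone 30 (1.64, adjusted p = 0.0605), without 47 (1.5, 0.0813) or without A01 (1.63, 0.0588), and in either series alone (2.08, adjusted p = 0.107, and 1.56, adjusted p = 0.154), with the same direction each time.

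Gata3, a GATA factor that acts in parallel with CDX2, was at 0.13, 0.251, 0.245 and 0.29 CPM in R42A clones A01, A02, A04 and A10 and at 0.8, 1.19, 1.53 and 1.53 CPM in MD clones 09, 30, 45 and 47. The 12 R42A libraries ran from 0.115 to 0.412 CPM (median 0.206) and the 12 MD libraries from 0.601 to 2.1 CPM (median 1.28), with no overlap. The log2 change of 2.37 ± 0.29 (SE; adjusted p = 0.000448) was the greatest of the 9. The first series gave 1.88 (adjusted p = 0.0311) and the second 2.99 (adjusted p = 0.0014). Exons of Gata3 overlap those of the antisense gene Gm13256 by 155 bases and those of 9230102O04Rik by 77, and these neighbours had at most 1 count in any library.

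Tfap2c, the AP-2 gamma factor, was at 28.2, 34.5, 32 and 32.9 CPM in R42A clones A01, A02, A04 and A10 and at 53, 59.5, 51.7 and 61.2 CPM in MD clones 09, 30, 45 and 47. Here too no library overlapped, with 26.3 to 37.8 CPM (median 32.3) against 49 to 67.7 CPM (median 55.6). The change was small but even, 0.81 ± 0.08 on the log2 scale (SE; adjusted p = 0.00018), and was 0.83 and 0.86 within the first and second series. For Tfap2c and Gata3 alone among the 9, all ESC libraries of MD lay above all of R42A, and their calls held in every alternative run.

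**Figure D2:**
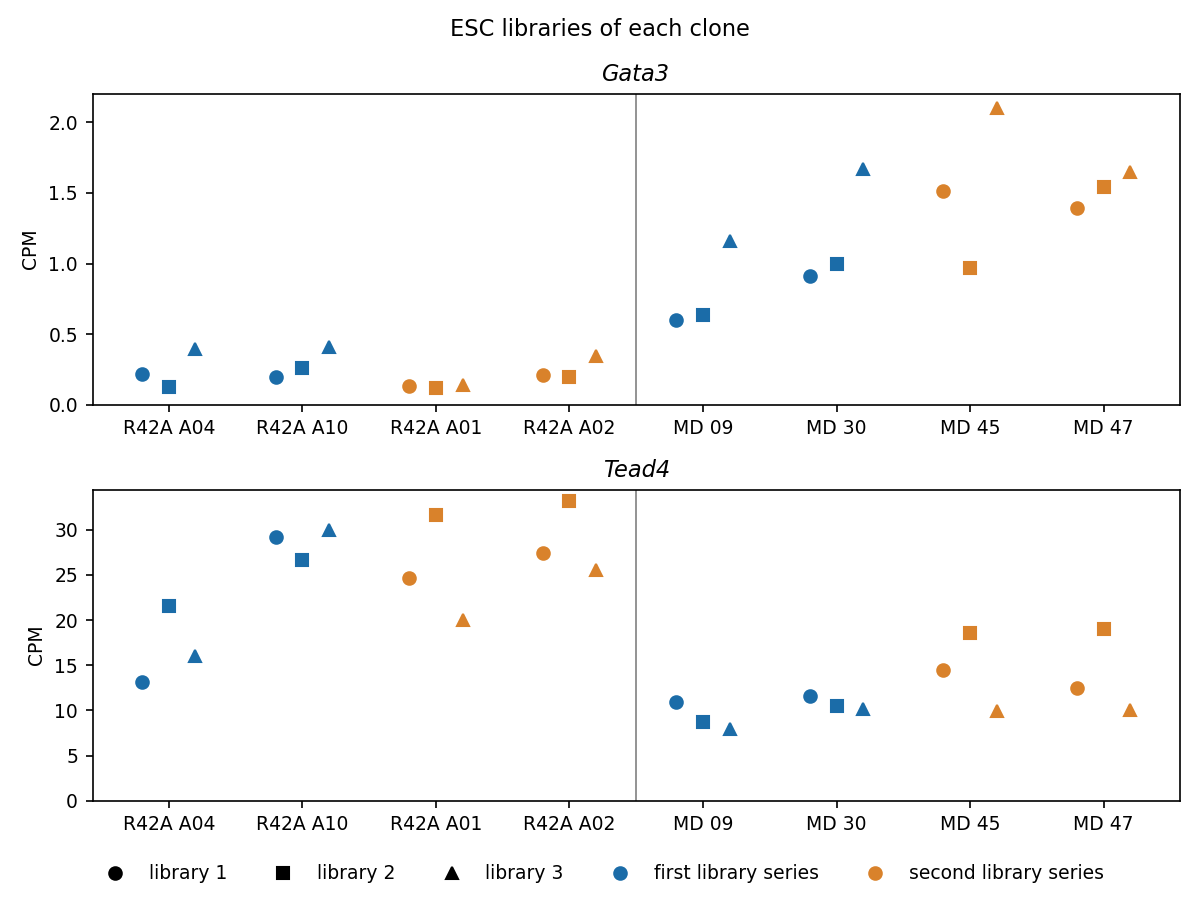
CPM (linear axis) of Gata3 and Tead4 in each of the 24 ESC libraries, by clone; marker shapes give the library number and colours the library series. Gata3 libraries of MD (0.601 to 2.1 CPM) lie above those of R42A (0.115 to 0.412 CPM), whereas Tead4 libraries of the genotypes overlap, and library 3 is the highest for Gata3 in all 8 clones.

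Within a clone the 3 ESC libraries were not alike for these genes. Library 3 was the highest of its clone for Gata3 in 8 of 8 clones, and for Cdx2, Elf5 and Hand1 in 4 of 4 clones of the first series. In the second series library 2 was the highest for Tead4, and library 3 for Tfap2c, in 4 of 4 clones. Both genotypes had every library number, so the numbers do not separate the genotypes.

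Eomes, the T-box factor of trophoblast stem cells, primitive streak and cortical progenitors, was at 4.06, 4.61, 5.13 and 5.12 CPM in R42A clones A01, A02, A04 and A10 and at 3.15, 2.78, 3.07 and 2.63 CPM in MD clones 09, 30, 45 and 47. All MD clones were below all R42A clones, with a small overlap of single libraries (R42A from 3.6 to 5.55, MD from 2.36 to 3.63 CPM). Its RNA fell by 0.71 ± 0.11 on the log2 scale (SE; adjusted p = 0.00143). The first series alone gave -0.75 (adjusted p = 0.0576), and the second alone -0.61 (adjusted p = 0.0628). The antisense gene Gm33460 shares 118 exon bases with Eomes and had 1 to 16 counts per ESC library. Elf5, the ETS factor of trophoblast stem cells whose promoter is methylated in ESC, was near the limit of detection, with 3 to 18 counts per R42A clone and 5 to 24 per MD clone. Its means were 0.047 ± 0.0293 and 0.075 ± 0.0289 CPM (SD, n = 4 clones), and its log2 change of 0.71 ± 0.33 did not pass (adjusted p = 0.129).

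Among the genes of later trophoblast and placenta, Plac1, an X-linked gene of trophoblast membranes, was at 0.0146, 0.046, 0.0426 and 0.107 CPM in R42A clones A01, A02, A04 and A10 and at 0.229, 0.503, 0.125 and 0.173 CPM in MD clones 09, 30, 45 and 47. The MD clones were all above the R42A clones, whose sums held 2 to 26 counts, and 2 libraries of A01 had a count of 0. The log2 change was 2.23 ± 0.42 (SE; adjusted p = 0.00387), with 2.21 over the first-series clones (adjusted p = 0.0928) and 2.35 over those of the second (adjusted p = 0.024).

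Hand1, a bHLH factor of giant cells and of heart, was at 0.188, 0.602, 0.207 and 0.59 CPM in R42A clones A01, A02, A04 and A10 and at 0.646, 0.995, 0.666 and 2.35 CPM in MD clones 09, 30, 45 and 47. Clone 47 stood above the rest of its group, and the lowest MD clone was just above the highest R42A clone. The log2 difference of 1.43 ± 0.51 did not pass in edgeR (adjusted p = 0.0552), while DESeq2 on the same sums gave 1.45 (adjusted p = 0.0152), and edgeR without clone 45 gave 1.62 (adjusted p = 0.0412) and without A10 1.94 (adjusted p = 0.0284). Without clone 47 it was 0.92 (adjusted p = 0.172) and without A01 1.1 (adjusted p = 0.121). Hand1 lies on chromosome 11, whose genes had a median log2 difference of 0.453 in ESC. With each chromosome scaled separately the Hand1 difference was 0.98 (adjusted p = 0.151). The chromosomes of the other 8 genes had medians between -0.139 and 0.003.

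Esx1, an X-linked homeobox gene of the placental labyrinth, was at 3.62, 3.94, 2.83 and 3.95 CPM in R42A clones A01, A02, A04 and A10 and at 1.91, 1.92, 3.44 and 3.67 CPM in MD clones 09, 30, 45 and 47. Only the first-series MD clones lay below the R42A clones. The log2 difference of -0.46 ± 0.18 did not pass (adjusted p = 0.078), with -0.77 over first-series clones and -0.08 over second-series clones.

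Other trophoblast genes, from a list of 32 that shares no member with the 9, gave 12 called higher and 2 lower of 27 tested in MD ESC (17.1% and 19.4% of all genes tested), with a median log2 change of 0.72 against -0.03 over all genes. Wnt7b, a Wnt ligand of the chorion, rose by 2.12 ± 0.61 (SE; adjusted p = 0.0244), Gcm1, of syncytiotrophoblast, by 2.01 ± 0.31 (adjusted p = 0.0013), Krt18, a keratin of simple epithelia, by 1.83 ± 0.4 (adjusted p = 0.00753) and Fgfr2, the FGF receptor of trophoblast stem cells, by 1.59 ± 0.15 (adjusted p = 0.00013). Krt8, partner of Krt18, rose by 1.38 ± 0.34 (adjusted p = 0.0123). The 2 that fell were Tfap2a (-1.17 ± 0.23) and Plet1 (-1.03 ± 0.31). The summed level of the list was 627 to 847 CPM in R42A clones and 843 to 1420 CPM in MD clones, so the ranges touched. Peg10 alone was at 412 ± 86.5 CPM in R42A ESC and 519 ± 132 CPM in MD ESC (SD, n = 4 clones). RNA of the listed genes is not particular to trophoblast. In R42A, Wnt7b and Fgfr2 were at 2.79 and 6.05 CPM in ESC and at 163 and 84.2 CPM in neural cells. Between these stages 12 of 30 tested genes of the list were called higher in neural cells and 11 lower, beside 37.9% and 40.4% of all genes. Tpbpa and Prl3d1, markers of spongiotrophoblast and giant cells, were at 0 in all ESC libraries of both genotypes, and Prl2c2 in those of R42A. In neural cells Tpbpa was at 0.38 ± 0.288 CPM in R42A and 1.79 ± 1.01 CPM in MD (SD, n = 2 clones). It was called higher there than in ESC in both genotypes, and was not called between the genotypes.

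TEAD4 works with YAP and TAZ, which the Hippo pathway holds in the cytoplasm. Of 21 tested genes of this list, 11 were called higher and 1 lower in MD ESC, beside 17.1% and 19.4% of all genes (median log2 change 0.34). YAP targets were among those that rose, Ccn1 by 2.45 ± 0.22 (SE; adjusted p = 0.000114) and Ccn2 by 1.49 ± 0.21 (adjusted p = 0.00081), as did the TEAD cofactor Vgll3 (1.64 ± 0.24) and the YAP-binding angiomotin gene Amot (1.39 ± 0.27). The YAP target Ankrd1 was not among the genes called in ESC. Nf2, Lats2, Stk4 and Mob1b, of the Hippo pathway that restrains YAP, were also called higher. Sav1, of the same pathway, was the 1 gene called lower. The list thus mixes both sides, and its counts give no direction of YAP activity, which was not measured. Yap1 rose by 0.27 ± 0.05 (adjusted p = 0.00484), and Wwtr1, which encodes TAZ, had a difference of -0.29 ± 0.1 (adjusted p = 0.0559). Among the other TEAD genes Tead3 rose by 1.14 ± 0.21 from 2.41 ± 0.744 CPM, while Tead1 (-0.08 ± 0.08) and Tead2 (-0.24 ± 0.09) did not pass; these 3 were named after their values were seen. Per kb, Tead1 and Tead2 were at 17.1 and 27.2 CPM in R42A ESC, above Tead4 at 6.92.

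Repressors of trophectoderm genes in ESC gave 7 called higher and 4 lower of 21 tested, beside 17.1% and 19.4% of all genes, with a median of 0.04. Dnmt3b, a DNA methyltransferase, rose by 1.13 ± 0.08 (SE; adjusted p = 4.18e-05), Suz12, of Polycomb repressive complex PRC2, by 0.88 ± 0.08 (adjusted p = 0.000117) and Sall4 by 0.35 ± 0.09 (adjusted p = 0.0181). Changes of list genes are given without scaling each chromosome separately, so a shift of a whole chromosome, as on chromosome 11, stays in them. The 4 called lower were Kdm1a, Rnf2, Ezh2 and Pou5f1, and Pou5f1 fell by 0.24 ± 0.08 (adjusted p = 0.0346). Ezh2, of PRC2 like Suz12, was at 223 ± 30 CPM in R42A ESC and 190 ± 27.3 CPM in MD ESC (SD, n = 4 clones). A naive pluripotency list of 9 genes also holds Pou5f1 and Nanog, which are in the repressor list as well. Of these 9 genes 6 were called lower, Pou5f1 among them, and the other 3 did not pass (19.4% of all genes were lower). The summed level was 3520 to 4960 CPM in R42A clones and 2840 to 3770 CPM in MD clones. Pou5f1 itself was at 1320 ± 530 CPM in R42A ESC and 1090 ± 335 CPM in MD ESC (SD, n = 4 clones). Primitive streak and mesoderm genes, whose cells also use Eomes and Cdx2, gave 5 higher and 2 lower of 20 tested, a share near the 36.5% of all genes called and so no result about the list; T rose by 1.95 ± 0.36 (adjusted p = 0.00349) and Wnt3 by 2.17 ± 0.28 (adjusted p = 0.000581), while Cdx1, a relative of Cdx2, fell by 2.33 ± 0.3 (adjusted p = 0.000545). Their summed level was 115 to 206 CPM in R42A and 116 to 172 CPM in MD. The part of these cell states in the results for the 9 genes was not tested.

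The second comparison asked how the genotypes differed after 6 days of neural induction. RNA of Eomes, Gata3 and Tfap2c was higher in MD neural cells, by 3.06, 2.97 and 1.72 times, and RNA of Cdx2 and Tead4 was lower. This made 5 of 9 genes called (33.7% of 23844 genes tested), 3 higher (17.4%) and 2 lower (16.3%), with a median log2 change of 0.24 against 0 over all genes. Clones of the genotypes did not overlap for 8 of 9 genes, 5 with MD above and 3 with MD below; with 2 clones a group this held for 76% of all genes tested, 37.9% above and 38.1% below. The plot of the genotype difference at each stage sets the 2 comparisons side by side.

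**Figure D3:**
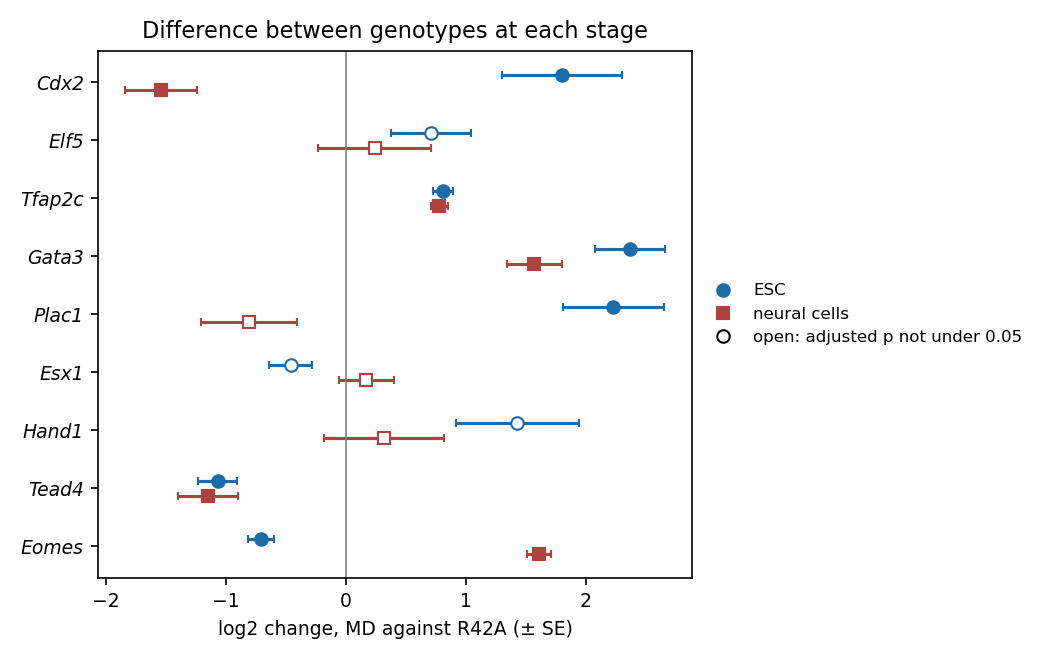
Log2 change of MD against R42A (± SE) for the 9 genes in ESC (circles) and neural cells (squares); open symbols have an adjusted p that is not under 0.05. Cdx2 lies on opposite sides of 0 at the 2 stages (1.8 and -1.54), as does Eomes (-0.71 and 1.61), while Tfap2c, Gata3 and Tead4 keep their side.

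Eomes was at 6.52 and 4.68 CPM in the libraries of R42A clone A04, 4.96 and 6.02 CPM in those of A10, 16.9 and 16 CPM in those of MD clone 09 and 17.5 and 17 CPM in those of clone 30. No MD library came near the range of the R42A libraries. The log2 change was 1.61 ± 0.1 (SE; adjusted p = 0.000123), and it passed in every alternative run.

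Cdx2 was at 8.37 and 7.72 CPM in the libraries of A04, 7.6 and 8.21 CPM in those of A10, 2.73 and 2.65 CPM in those of 09 and 2.61 and 3.03 CPM in those of 30. MD libraries were all far below R42A libraries, and RNA of Cdx2 fell by 1.54 ± 0.3 on the log2 scale (SE; adjusted p = 0.00786). With 09 or 30 left out, so that 1 MD clone remained and was taken to vary like the other groups, the change was -1.52 (adjusted p = 0.154) or -1.56 (adjusted p = 0.149).

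Tead4 was at 10.9 and 8.78 CPM in the libraries of A04 and 8.75 and 9 CPM in those of A10, and at 3.51 and 5.18 CPM in those of 09 and 4.01 and 4.2 CPM in those of 30. Its RNA fell by 1.15 ± 0.25 (SE; adjusted p = 0.0113), or by 1.2 without 09 (adjusted p = 0.134) and 1.1 without 30 (adjusted p = 0.155). Gata3 was at 1 and 0.89 CPM in the libraries of A04, 0.637 and 0.717 in those of A10, 2.08 and 2.58 in those of 09 and 2.7 and 2.18 in those of 30. The groups did not overlap, with a log2 change of 1.57 ± 0.23 (SE; adjusted p = 0.00245) that missed the threshold without 09 (1.61, adjusted p = 0.0549) or 30 (1.53, adjusted p = 0.0604). Tfap2c was at 20.6, 24.2, 23.7 and 21.3 CPM in the 4 R42A libraries and at 37.8, 37.8, 40.9 and 38.2 CPM in the 4 MD libraries, a log2 change of 0.78 ± 0.07 (SE; adjusted p = 0.000347).

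The placental genes and Elf5 did not pass in neural cells. Plac1 was at 1.93, 1.78, 1.77 and 1.36 CPM in the R42A libraries and 1, 0.804, 0.987 and 1.16 CPM in the MD libraries, without overlap, for a log2 difference of -0.81 ± 0.4 (SE; adjusted p = 0.167); a fit to the 4 neural sums alone gave -0.8 (adjusted p = 1.96e-05). Esx1 stood at 0.477 ± 0.00171 and 0.543 ± 0.00689 CPM in R42A and MD (SD, n = 2 clones; adjusted p = 0.612), Hand1 at 0.242 ± 0.0479 and 0.297 ± 0.0251 CPM (adjusted p = 0.673) and Elf5 at 0.0696 ± 0.024 and 0.0811 ± 0.0191 CPM (adjusted p = 0.737). The Hand1 difference of 0.32 turned to -0.13 with each chromosome scaled separately, beside a chromosome 11 median of 0.475 in neural cells.

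Markers of other cells also differed between the neural groups. Of all genes tested 17.4% were called higher and 16.3% lower. Of 12 neuron genes 11 were called higher in MD and the other 1 did not pass, with a summed level of 731 to 752 CPM in R42A clones and 1990 to 2010 CPM in MD clones; Tubb3, the neuronal tubulin, rose by 1.12 ± 0.29 (SE; adjusted p = 0.0234). Of 14 surface ectoderm and neural crest genes, where Gata3 and Tfap2c are also used, 6 were called higher and 3 lower. Their summed levels were 124 to 125 CPM in R42A and 229 to 245 CPM in MD. Most of these sums came from Pax3 (49.2 and 74.4 CPM in R42A and MD), Tfap2b (33.1 and 82.6 CPM) and Sox9 (20.5 and 56.7 CPM). Dlx5 rose by 3.38 ± 0.33 (adjusted p = 0.000468) and Tfap2a, a paralogue of Tfap2c, by 1.88 ± 0.31 (adjusted p = 0.00406). In R42A the level of Dlx5 was near the limit of detection, at 0.0774 ± 0.0215 CPM against 0.802 ± 0.113 CPM in MD (SD, n = 2 clones). Those called lower were Grhl3 (3.15 CPM in R42A, 1.73 CPM in MD), Msx1 (7.67 and 3.5 CPM) and Krt5. The keratin gene Krt5 was called lower (adjusted p = 0.0324) at levels near the limit of detection, 0.0646 ± 0.0204 CPM in R42A and 0.00379 ± 0.00537 CPM in MD (SD, n = 2 clones), with 1 MD clone at 0. Of 21 primitive streak and mesoderm genes 1 was called higher and 6 lower (207 to 235 CPM summed in R42A, 150 to 153 CPM in MD), among them Cdx1 (-2.27 ± 0.55) and Kdr (-1.84 ± 0.23); Msgn1 was at 0 in both. Of 10 extraembryonic endoderm genes 3 were called lower and 7 did not pass (Afp, Ttr and Amn; 372 to 405 CPM summed in R42A and 166 to 179 CPM in MD). No gene of the neuron, surface ectoderm or endoderm lists was at 0 in either neural group, and their part in the results for the 9 genes was not tested.

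The other trophoblast genes were called in both directions in neural cells, 5 higher and 6 lower of 30 tested, near the 17.4% and 16.3% of all genes and so no result about the list, with a median log2 change of -0.04. Tinagl1, a basement membrane gene of parietal endoderm and trophoblast, fell by 3.13 ± 0.44 (SE; adjusted p = 0.00199), and Gcm1, which rose in MD ESC, fell by 2.16 ± 0.54 (adjusted p = 0.0205). The giant cell hormone gene Prl3d1 was called higher at 0.135 ± 0.0422 CPM against 0.00868 ± 0.000403 CPM in R42A (SD, n = 2 clones; adjusted p = 0.0127), levels near the limit of detection. The summed level of the list was 2270 to 2400 CPM in R42A clones and 2160 to 2200 CPM in MD clones.

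The TEAD and Hippo genes gave 2 called higher and 13 lower of 21 tested in MD neural cells (17.4% and 16.3% of all genes), against 11 and 1 in ESC. The YAP targets Ankrd1 (-3.07 ± 0.85, adjusted p = 0.0294), Ccn1 (-1.9 ± 0.24, adjusted p = 0.00131) and Ccn2 (-1.4 ± 0.08, adjusted p = 0.000121) were lower with Tead4, as was Yap1 (-0.32 ± 0.06, adjusted p = 0.00571). Lats2, Sav1, Mob1a and Mob1b, of the Hippo pathway that restrains YAP, were also called lower. The 2 called higher, Lats1 and Nf2, belong to the same pathway. Here too the counts give no direction of YAP activity. Repressors gave 3 higher and 9 lower of 21, beside the same shares, with Dnmt3b at -0.96 ± 0.05 (adjusted p = 6.8e-05) and Sall4 at -0.84 ± 0.13 (adjusted p = 0.00262). The plot of the trophoblast and Hippo lists shows each gene at both stages.

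**Figure D4:**
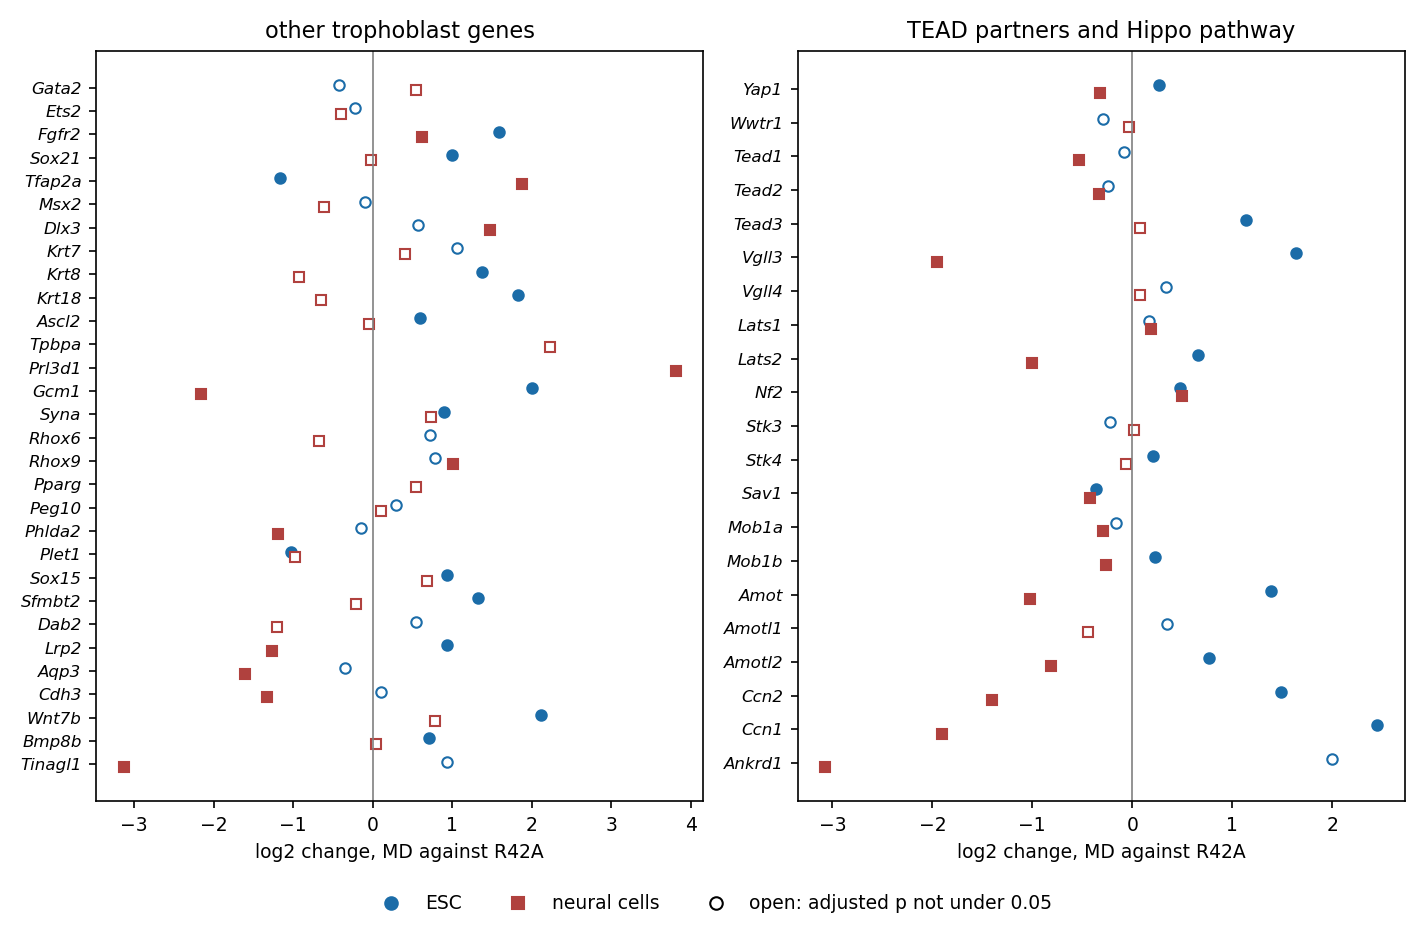
Log2 change of MD against R42A for tested genes of the other trophoblast list (left) and of the TEAD and Hippo list (right), in ESC (circles) and neural cells (squares); open symbols have an adjusted p that is not under 0.05. Most filled circles of the Hippo list lie right of 0 (11 of 12) and most filled squares left of it (13 of 15).

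The next comparisons asked how the 9 genes differed between ESC and neural cells within a genotype, over the clone labels A04 and A10 or 09 and 30. In R42A, Cdx2, Plac1 and Gata3 were called higher in neural cells and Esx1, Tead4 and Tfap2c lower, 6 of 9 in all and 3 each way; of all 23844 genes tested 78.3% were called, 37.9% higher and 40.4% lower. In MD, Cdx2, Eomes, Plac1 and Gata3 were called higher and Esx1, Hand1, Tead4 and Tfap2c lower, 8 of 9 in all and 4 each way, beside 81.3% of all genes, 40.3% higher and 41% lower. Most genes differ between the stages, so these shares are not particular to the set. The comparisons in R42A and in MD share no library.

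Cdx2 had the widest range of the 9. From 0.0955 and 0.031 CPM in ESC of A04 and A10 it stood at 8.05 and 7.91 CPM in their neural cells, a log2 change of 6.88 ± 0.41 (SE; adjusted p = 4.36e-06) or 117 times; the ESC side rests on 22 and 7 counts, and the log2 change was 7.95 without A04 and 6.24 without A10, both called. From 0.225 and 0.329 CPM in ESC of 09 and 30 it stood at 2.69 and 2.82 CPM, a log2 change of 3.28 ± 0.34 (adjusted p = 7.64e-05) or 9.69 times. The MD clones thus began above and ended below the R42A clones. For Plac1 only the clone levels can be so ordered, as its genotype difference in neural cells did not pass (-0.81, adjusted p = 0.167). Plac1 showed the same order, from 0.0426 and 0.107 CPM in ESC of A04 and A10 to 1.85 and 1.57 CPM (4.37 ± 0.48, adjusted p = 0.000111; 3.77 without A04 and 5.25 without A10, both called), and from 0.229 and 0.503 CPM in ESC of 09 and 30 to 0.903 and 1.08 CPM (1.38 ± 0.42, adjusted p = 0.0171; 1.05, adjusted p = 0.169, without 09).

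Eomes stood at 5.13 and 5.12 CPM in ESC of A04 and A10 and 5.6 and 5.49 CPM in their neural cells (0.07 ± 0.1, adjusted p = 0.529), and went from 3.15 and 2.78 CPM to 16.4 and 17.3 CPM in 09 and 30 (2.45 ± 0.1, adjusted p = 6.54e-07).

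Gata3 rose by 1.53 ± 0.24 in R42A (adjusted p = 0.000839) and 1.24 ± 0.22 in MD (adjusted p = 0.00152; 1.08, adjusted p = 0.0555, without 09). Tead4 fell by 1.33 ± 0.24 and 1.3 ± 0.25 (adjusted p = 0.0016 and 0.00185; in MD 1.12, adjusted p = 0.0723, without 30), and Tfap2c by 0.57 ± 0.07 and 0.6 ± 0.07 (adjusted p = 0.000177 and 0.000118). Esx1 fell by 2.84 ± 0.23 in R42A and 1.88 ± 0.22 in MD (adjusted p = 1.84e-05 and 0.000141). Hand1 fell in MD by 1.49 ± 0.46 (adjusted p = 0.0191), a call that was lost without 09 (-1.78, adjusted p = 0.113) or 30 (-1.16, adjusted p = 0.249), and had a difference of -0.81 ± 0.48 in R42A (adjusted p = 0.157; -1.2, adjusted p = 0.00841, without A04, and -0.09, adjusted p = 0.852, without A10). Elf5 was at 0.0655 to 0.106 CPM in the ESC clones that entered and did not pass in either genotype (adjusted p = 0.854 and 0.523).

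**Figure D5:**
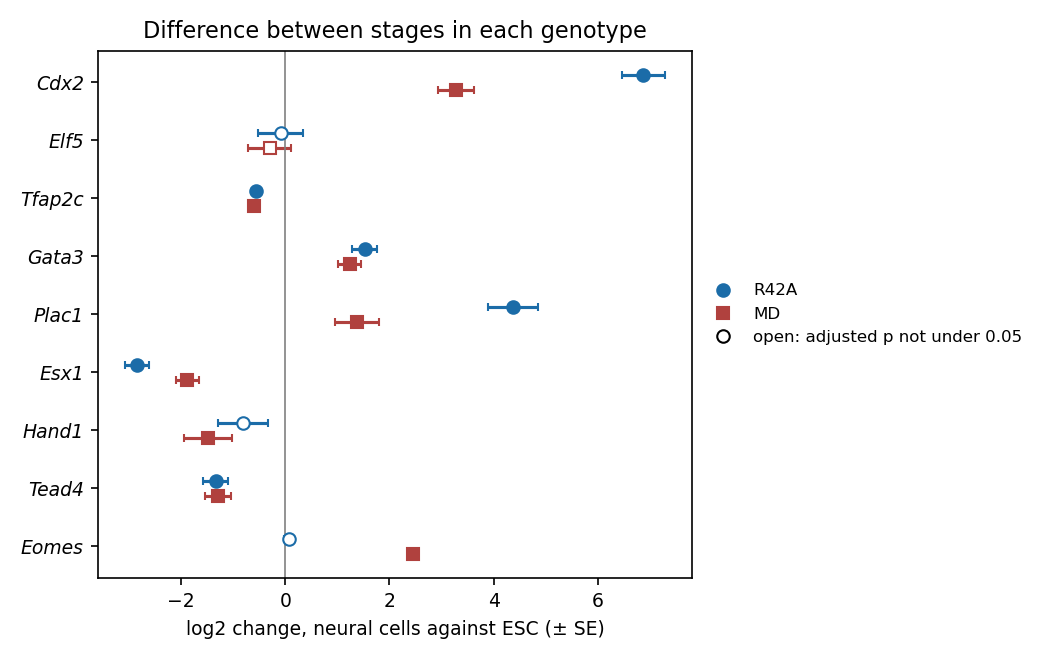
Log2 change of neural cells against ESC (± SE; some bars are narrower than the symbol) for the 9 genes in R42A (circles) and MD (squares); open symbols have an adjusted p that is not under 0.05. The 2 genotypes lie close together for Tfap2c, Gata3 and Tead4 and apart for Cdx2 (6.88 and 3.28), Plac1 (4.37 and 1.38) and Eomes (0.07 and 2.45).

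The last comparison tested whether the MD difference itself differed between neural cells and ESC. It did for 3 of 9 genes (22.9% of 23844 genes tested), 1 higher (11.9%) and 2 lower (11.1%). The MD difference in neural cells less that in ESC was -3.6 ± 0.52 on the log2 scale for Cdx2 (SE; adjusted p = 0.00405) and -2.99 ± 0.63 for Plac1 (adjusted p = 0.0154). It was higher for Eomes at 2.38 ± 0.14 (adjusted p = 0.000281). Calls for Cdx2 and Plac1 were lost without MD clone 09 (-3.79, adjusted p = 0.106, and -3.33, adjusted p = 0.112) or 30 (-3.38, adjusted p = 0.131, and -2.49, adjusted p = 0.183), and the Eomes call held in every alternative run. Leaving out an R42A clone kept both calls but moved the values, to -4.68 without A04 and -2.97 without A10 for Cdx2, and to -2.39 without A04 and -3.87 without A10 for Plac1. For Tfap2c (-0.03 ± 0.1), Tead4 (0.03 ± 0.34) and Gata3 (-0.29 ± 0.33) no difference between stages was detected (adjusted p = 0.859, 0.981 and 0.574). Without clone A10 the Tead4 value was -0.49 (adjusted p = 0.044). Esx1 (0.96 ± 0.31, adjusted p = 0.063), Hand1 (-0.68 ± 0.66, adjusted p = 0.509) and Elf5 (-0.21 ± 0.61, adjusted p = 0.851) did not pass. The R42A clone left out moved both ways: Esx1 was 1.21 without A04 (adjusted p = 0.00447) and 0.66 without A10 (adjusted p = 0.0993), and Hand1 was -1.4 without A10 (adjusted p = 0.0496) and -0.29 without A04 (adjusted p = 0.653).

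The same test on the lists gave 1 higher and 10 lower of 30 other trophoblast genes, where 11.9% and 11.1% of all genes were called, among them Krt8 (-2 ± 0.51, adjusted p = 0.0314) and Krt18 (-1.97 ± 0.56, adjusted p = 0.0439). It called 10 of 21 TEAD and Hippo genes lower, and 11 did not pass, with Ccn1 at -4.04 ± 0.34 (adjusted p = 0.000688), Vgll3 at -3.56 ± 0.39 (adjusted p = 0.00157) and Ccn2 at -2.82 ± 0.12 (adjusted p = 0.000182). Their median differences were -0.72 and -0.43, against 0.02 over all genes tested.

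Over the 12 clone sums (8 of ESC, 4 neural), the genes whose log2 CPM followed each of the 6 more abundant factors most closely were listed by Pearson's r, as a description of sums that share libraries, depth and the large difference between stages. For Cdx2 these were 9930014A18Rik (r = 0.982), Adamts1 (0.98) and Prdm12 (0.979) among 15314 genes. For Esx1 they were Aspg (0.997), Crybg2 (0.995) and Vill (0.994), for Tead4 Cmklr1 (0.99), Ptgfrn (0.971) and Sh3tc1 (0.971), and for Eomes Phyhipl (0.985), L1cam (0.977) and Cacng5 (0.976). Gata3 was followed by Col1a2 (0.965), Retreg3 (0.956) and H2-T22 (0.953). For Tfap2c, on chromosome 2, the 3 were Ykt6 (0.977), Atpaf2 (0.976) and Grb2 (0.971), all on chromosome 11, the chromosome whose genes had the higher median in MD. Retreg3, listed for Gata3, and Cacng5, listed for Eomes, also lie on chromosome 11.

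In mm10 the 9 genes are spread over 7 chromosomes. Cdx2 (ENSMUSG00000029646.3) lies at chr5:147300805-147307270, Tead4 (ENSMUSG00000030353.15) at chr6:128224288-128300823, Eomes (ENSMUSG00000032446.14) at chr9:118478212-118486132 and Hand1 (ENSMUSG00000037335.13) at chr11:57828705-57832818. Gata3 (ENSMUSG00000015619.10) at chr2:9857078-9890034, Elf5 (ENSMUSG00000027186.14) at chr2:103411688-103450989 and Tfap2c (ENSMUSG00000028640.11) at chr2:172549593-172558622 share a chromosome without being neighbours. Plac1 (ENSMUSG00000061082.11) at chrX:53069995-53240111 and Esx1 (ENSMUSG00000023443.13) at chrX:137115397-137122083 are X-linked.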

How the data were processed

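The authors deposited 1 table per library (32 libraries) of expected counts, without normalization. Trim Galore 0.60, STAR 2.7.1a, RSEM 1.3.0, DESeq2 and the build mm10 are listed, per the submitters' processing notes; annotation release and strand setting are not given in the sources used here. Per library, 1.46% to 1.7% of genes held a fraction (tolerance 1e-06). Of 55665 entries, 92 spike-in entries with a total of 0 were left out, and 55480 of 55573 genes were matched by identifier to GENCODE M21. Library totals are given in the report, and 3 counts over a library total set the limit allowed by a count of 0.

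Rounded expected counts were added up per clone, and the clone was the replicate. Nothing says that clones or numbered libraries were separate cultures, so p-values measure only the spread between these sums. Tests were edgeR 4.0.16 quasi-likelihood tests (R 4.3.3, robust) with TMM, a filterByExpr minimum of 10 counts, Benjamini-Hochberg adjustment over all genes tested and calls at an adjusted p under 0.05. The ESC test used 8 sums and a term for library series. The other 4 tests came from 1 fit of 4 groups on 8 sums. The SE of a log2 change was worked back from its test, as the absolute change over the square root of the F statistic. Levels are CPM scaled by TMM over all libraries, averaged over the libraries of a clone, with the SD over clones; per kb uses merged exon length. Scripts were tested on simulated data.

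All 9 genes are named; other lists are given by counts, with up to 4 called genes of greatest absolute change per comparison and a few defining genes. Likeness used genes of at least 1 CPM and a prior count of 2. The genes and lists were chosen with earlier results of these data known. Alternatives were DESeq2 1.42.0, no filter, single libraries with and without a replicate block, separate scaling of each chromosome, each clone left out, no series term, each series alone, neural sums alone and the clone as block. The same clone label at both stages was taken to name the same cell line, as read from the repeated label. Deviations of same-labelled sums correlated by -0.02 in R42A and 0.017 in MD, so they show no trace of a shared line.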

Additional observations from a re-analysis of the deposited data

Results flagged for a closer look

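The MD difference of 3 genes differed between stages by the test of the difference itself: Cdx2 with -3.6 on the log2 scale, Plac1 with -2.99 and Eomes with 2.38 (neural cells less ESC). Eomes and Cdx2 had called differences of opposite sign in ESC and neural cells: -0.71 and 1.61 for Eomes, 1.8 and -1.54 for Cdx2. The Eomes call in ESC was lost in either series alone, that of Cdx2 in ESC in either series alone and without clone 30, 47 or A01, and that of Cdx2 in neural cells without clone 09 or 30.

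Among 36 groups of single libraries or clones checked (chance flags about 1 in 20), 2 held a value far from the others. Library 1 of MD neural clone 30 had 40.9 CPM of Tfap2c, above the other 3 libraries of its group, and library 1 of R42A neural clone A04 had 10.9 CPM of Tead4, likewise above the other 3. Neither value crosses into the range of the other genotype.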

How the results depend on the processing

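Over 489 recomputed changes of the 9 genes, 436 kept their direction and their side of the threshold, 24 lost the call, 15 gained one and 14 changed sign. No change that was called in the tests reported changed sign. The count of genes called in ESC (7862) was 3084 without the series term, 1769 in the first series alone and 4878 in the second alone. In neural cells (8030) it was 13643 with the neural sums alone and 1538 to 9967 with 1 clone left out, lowest without 30 (1538) and 09 (1600). For the change of the MD difference between stages (5472) it was 77 to 8759 with 1 clone left out, with 77 without 09 and 114 without 30, and 7775 without A10 and 8759 without A04; the cause was not tested.

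Of uncalled changes, Hand1 in neural cells was -0.13 with each chromosome scaled separately, and the Tead4 difference between stages was -0.01 in DESeq2, -0.02 with each chromosome scaled separately and -0.02 with the clone as block, and -0.49 to 0.44 with 1 clone left out (-0.49, adjusted p = 0.044, without A10). With 1 clone left out, Elf5 ran from -0.11 to 0.7 for MD against R42A in neural cells, from -0.67 to 0.39 between stages in R42A, from -0.78 to 0.21 in MD and from -0.71 to 0.35 for their difference. The difference between stages ran from -0.07 to 0.01 for Tfap2c and from -0.58 to 0.03 for Gata3.

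Calls gained were those of Hand1 in ESC (single libraries 1.48, adjusted p = 0.000996; without 45 1.62, 0.0412; without A10 1.94, 0.0284), Esx1 in ESC (single libraries -0.43, adjusted p = 0.014), Plac1 in neural cells (single libraries -0.79, adjusted p = 0.0453), Hand1 between stages in R42A (without A04 -1.2, adjusted p = 0.00841), the Esx1 difference between stages (0.99 over single libraries, 1.12 under separate scaling of chromosomes, 1.21 without A04) and that of Hand1 (without A10 -1.4, adjusted p = 0.0496). Libraries of 1 clone are not independent, so p-values over single libraries are too small.

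With single libraries and their number as a replicate block, 10315 genes were called in ESC, 8649 in neural cells, 17657 and 18101 between stages in R42A and MD, and 7372 for the difference; without the block these were 10110, 8538, 17799, 18235 and 7188. Same-numbered ESC libraries of the genotypes deviated together with correlations of 0.036, -0.196 and 0.425 in the first series and -0.001, 0.306 and 0.255 in the second, so the numbers were not taken as pairs. With the clone as block, 18150, 18862 and 3853 genes were called, and no call among the 9 genes changed.

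Depth limits Cdx2, Elf5 and Plac1 in ESC, where single libraries had counts of 0, and Elf5 in all groups. Neural cells have 2 clones a genotype.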

Other observations

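Of 9 genes of the naive pluripotency list, which also holds Pou5f1 and Nanog, 6 were called lower and 3 did not pass in MD ESC. In MD neural cells 3 were called higher and 3 lower. The test of the difference between stages called 3 higher, and 6 did not pass. Of all genes tested, 17.1% were called higher and 19.4% lower in ESC, and 17.4% and 16.3% in neural cells. For the difference these shares were 11.9% and 11.1%. Nanog, at 2.72 ± 0.297 CPM in R42A neural cells and 4.66 ± 0.982 CPM in MD neural cells (SD, n = 2 clones), was among the higher (0.8 ± 0.14, adjusted p = 0.00548 in edgeR), and it did not pass in ESC (-0.1 ± 0.07, adjusted p = 0.298). Of 8 germline genes, a lineage that also uses Tfap2c, 2 were called higher and 2 lower in MD ESC. In MD neural cells 2 were called lower and 6 did not pass. These counts of a short list are near the shares of all genes and so no result about the list. Summed levels were 207 to 292 CPM in R42A ESC and 264 to 314 CPM in MD ESC. In neural cells they were 75.7 to 84 CPM in R42A and 64 to 66.6 CPM in MD.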
